A study of Mus musculus with 3 samples.

Results

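The control-hairpin (shCtrl) line of mpkCCD cells is described here from its RNA-seq library, 1 library of the 3 in the series, chosen by its label and not by its values. The shGR1 and shGR2 lines carried 1 of 2 hairpins against Nr3c1, the gene of the glucocorticoid receptor, and shCtrl carried a non-target hairpin. All 3 lines were mouse mpkCCD cells that had received their hairpin by lentivirus and had been selected with puromycin, and all were sampled under vehicle, without a vasopressin analog. According to the methods of the study, the cells were used between passages 18 and 32, grown on permeable supports, and kept in medium from which serum (2%) and supplements other than dexamethasone were withdrawn. The line comes from collecting ducts of a mouse carrying the large T antigen of SV40 under the promoter of L-type pyruvate kinase, and was re-cloned for high Aqp2, so its values belong to 1 immortalized line and not to the tissue. Each line gave 1 library, so no difference between lines has a replicate check within these libraries, and no test was run.

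The collecting duct ends the nephron's work on salt and water. Its principal cells take up sodium through the epithelial sodium channel (ENaC) and water through aquaporins, and vasopressin acts on them through the V2 receptor to raise Aqp2 transcription and to move AQP2 to the apical membrane. Its intercalated cells move acid and base with a vacuolar proton pump and bicarbonate exchangers. The duct grows from the ureteric bud, whereas the segments from the podocyte to the distal tubule grow from the nephron progenitors around it.

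The abundance unit was FPKM, a fragment count scaled by transcript length and library size, so levels of different genes stand on a common scale. Transcript values were added up within each gene symbol, and a gene was taken as expressed over 0.3 FPKM, the limit that the methods of the study use. In shCtrl, 14457 of 51803 gene symbols were over it (27.9%), and 11660 of 21839 protein-coding symbols (53.4%). The last share is the background against which the lists below are read, since the members of the hand-made lists are protein-coding genes apart from Xist, Tsix and the pseudogene Etv3l. The level of 1 fragment on a transcript of 1 kb was roughly 0.0375 FPKM in shCtrl, read from the commonest low value of 1264 single-transcript genes, so that 0.3 FPKM stood for about 8 fragments per kb. Read counts were not analysed here, the depth is known only in this crude way, and no counting interval can be given. An exact 0 can be a failed estimate: Ndufs3, a core subunit of respiratory complex I, was listed at 0 in all 3 libraries, while Ndufs1, Ndufs7, Ndufs8 and Ndufv1 were between 34.4 and 74.1 FPKM in shCtrl. Such genes are therefore called listed at 0, not absent.

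The defining markers of each list were chosen with earlier results of these data known. In the principal cell list, 6 members outside the defining ones were not over the limit, among them Scnn1b, Nr3c2, Elf5 and Kcnj1. The 5 defining principal cell markers were all over the limit in shCtrl. Scnn1a, the α subunit of ENaC (chromosome 6, 125320659 to 125344943, GRCm38), was the highest of them at 168 FPKM and ranked 337th over all symbols. Gata3, a zinc finger transcription factor of the collecting duct (chromosome 2, 9857078 to 9890034), was at 59.6 FPKM and ranked 1582nd. Fxyd4, a regulatory subunit of the sodium pump (chromosome 6, 117933559 to 117937692), was at 30.7 FPKM and ranked 3517th. Avpr2, the V2 receptor (chromosome X, 73892102 to 73895502), was at 28.5 FPKM and ranked 3808th. Aqp2, the vasopressin-regulated water channel (chromosome 15, 99579055 to 99584547), was the lowest at 9.55 FPKM and ranked 8098th, so that the channel for which the line was re-cloned lay below the other markers when no vasopressin analog was given.

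**Figure D1:**
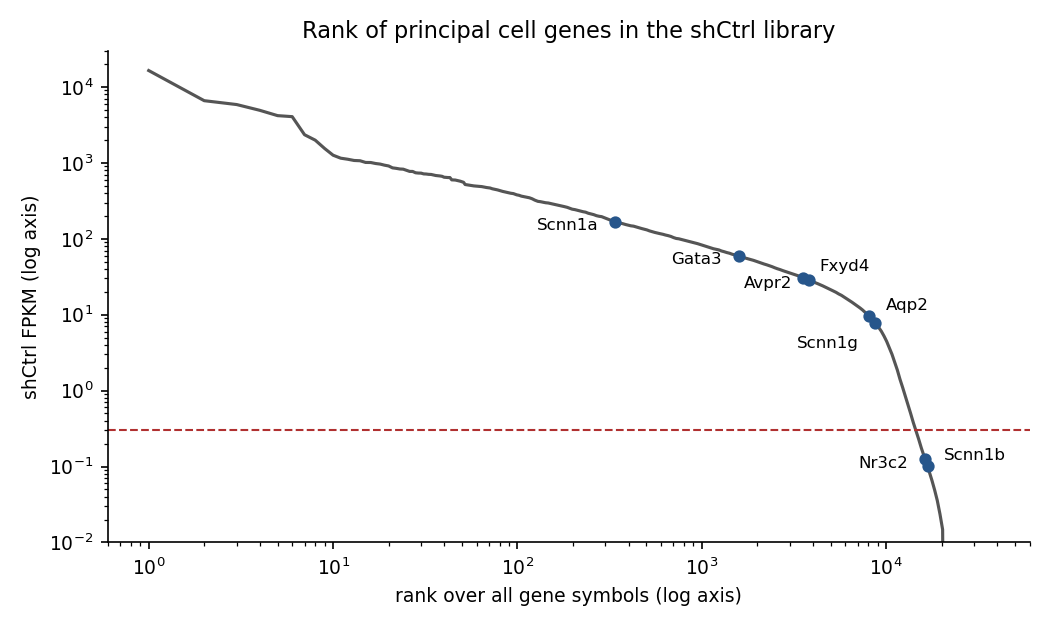
FPKM against rank over all gene symbols of the shCtrl library, both on log axes, with 8 principal cell genes as points and the 0.3 FPKM limit dashed. Scnn1a (168 FPKM) stands highest and Aqp2 (9.55 FPKM) lies near the bend of the curve, and Nr3c2 and Scnn1b fall under the limit.

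The promoters of these markers are shown because they differ in the base composition that went with expression level across the library. RefSeq (GRCm38.p6) held an entry for 4 of the 5 markers. The 250 bases before the start site are printed, and the start site lay within 1 base of that of the highest transcript of each gene in shCtrl. Capitals mark matches on either strand to 5 motifs, and no matches overlapped. The motif GATAA is the core that GATA factors read. The letters AGGAAG are a core that ETS factors read. The letters TGACG are a partial site of CREB. The letters TATAA are those of a TATA box, and AGAACA is a partial site of the glucocorticoid receptor.
Aqp2, chr15:99578806-99579055, + strand: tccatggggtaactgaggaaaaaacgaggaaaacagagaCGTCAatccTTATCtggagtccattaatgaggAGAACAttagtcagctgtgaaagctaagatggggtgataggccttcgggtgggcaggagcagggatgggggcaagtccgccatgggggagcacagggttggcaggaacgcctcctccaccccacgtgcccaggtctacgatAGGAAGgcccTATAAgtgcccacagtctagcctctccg
Avpr2, chrX:73891852-73892101, + strand: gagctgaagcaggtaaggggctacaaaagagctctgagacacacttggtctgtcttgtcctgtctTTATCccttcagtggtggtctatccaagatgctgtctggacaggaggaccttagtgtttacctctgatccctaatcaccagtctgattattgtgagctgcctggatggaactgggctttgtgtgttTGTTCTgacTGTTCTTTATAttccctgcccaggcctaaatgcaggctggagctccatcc
Fxyd4, chr6:117937336-117937585, - strand: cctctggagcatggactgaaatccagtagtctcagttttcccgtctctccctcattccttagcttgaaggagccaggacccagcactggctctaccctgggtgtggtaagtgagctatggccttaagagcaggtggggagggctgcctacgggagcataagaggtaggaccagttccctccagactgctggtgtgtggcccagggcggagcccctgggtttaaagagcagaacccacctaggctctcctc
Gata3, chr2:9878601-9878850, - strand: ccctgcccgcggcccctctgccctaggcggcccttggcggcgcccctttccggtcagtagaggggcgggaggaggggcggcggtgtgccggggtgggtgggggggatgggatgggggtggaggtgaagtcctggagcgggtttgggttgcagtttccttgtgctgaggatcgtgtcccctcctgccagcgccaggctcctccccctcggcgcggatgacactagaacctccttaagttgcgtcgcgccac

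The Aqp2 window held a match to each of the 5 motifs, with TATAA at bases -28 to -24 from the start, AGGAAG at -38 to -33, AGAACA at -179 to -174, GATAA at -202 to -198 and TGACG at -211 to -207. The Avpr2 window held GATAA at -185 to -181, TATAA at -44 to -40 and AGAACA at both -59 to -54 and -50 to -45. All Avpr2 matches were on the strand opposite to the gene, so TATAA is printed there as TTATA. The Fxyd4 and Gata3 windows held none of the 5 motifs. A match is a run of letters and not a shown binding site, and such runs were common. Over 16235 promoters of protein-coding symbols, 20.6% held GATAA, 28.5% AGGAAG, 20.8% TGACG, 20.5% TATAA and 13.6% AGAACA. The ratio of observed to expected CpG was 0.42 for Aqp2, 0 for Avpr2, 0.14 for Fxyd4 and 0.63 for Gata3.

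Across the library, promoters of genes over the limit were richer in CpG than those of other genes. The median CpG ratio was 0.74 for 9086 promoters of genes over 0.3 FPKM and 0.24 for 7149 promoters of genes not over it. It was 0.17 for genes listed at 0, 0.38 over 0 to 0.3 FPKM, 0.41 over 0.3 to 1 FPKM, 0.68 over 1 to 10 FPKM, 0.78 over 10 to 100 FPKM and 0.80 over 100 FPKM. Aqp2, Avpr2, Fxyd4 and Gata3 each lay under the median of their own level class. TATAA ran the other way, with 39.1% of promoters of genes listed at 0 and 9.90% of those over 10 to 100 FPKM, although the share over 100 FPKM was 16.3%. These are descriptions over genes, which are not independent, and no test was made of them.

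Principal cell genes were well represented in shCtrl, with 17 of 23 members over 0.3 FPKM (73.9%) and 12 of them over 10 FPKM. The highest was Atp1b1, the β subunit of the sodium pump, at 573 FPKM and ranked 49th in the library. Among the next was nephronectin (Npnt), a matrix ligand of the ureteric bud epithelium, at 192 FPKM. The sodium pump regulator Fxyd4 was named above, and Sgk1, the kinase that keeps ENaC at the membrane, was at 99.8 FPKM. Hsd11b2, the enzyme that inactivates glucocorticoid in aldosterone target cells, was at 27.8 FPKM. Of the 6 members not over the limit, Nr3c2, the mineralocorticoid receptor, was at 0.125 FPKM, Scnn1b, the β subunit of ENaC, at 0.101 FPKM and Elf5, an ETS factor of principal cells, at 0.0928 FPKM. Kcnj1, the apical potassium channel ROMK, was listed at 0.

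The 3 subunits of ENaC were therefore far apart in this library. Scnn1a was at 168 FPKM, Scnn1g, the γ subunit, at 7.81 FPKM and Scnn1b at 0.101 FPKM, and a channel of the textbook composition holds all 3 of them. Scnn1b had 3 listed transcripts, of which 1 carried all of its FPKM. The corticosteroid receptors were likewise apart, with Nr3c1 at 30.2 FPKM and Nr3c2 at 0.125 FPKM, under the limit.

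**Figure D2:**
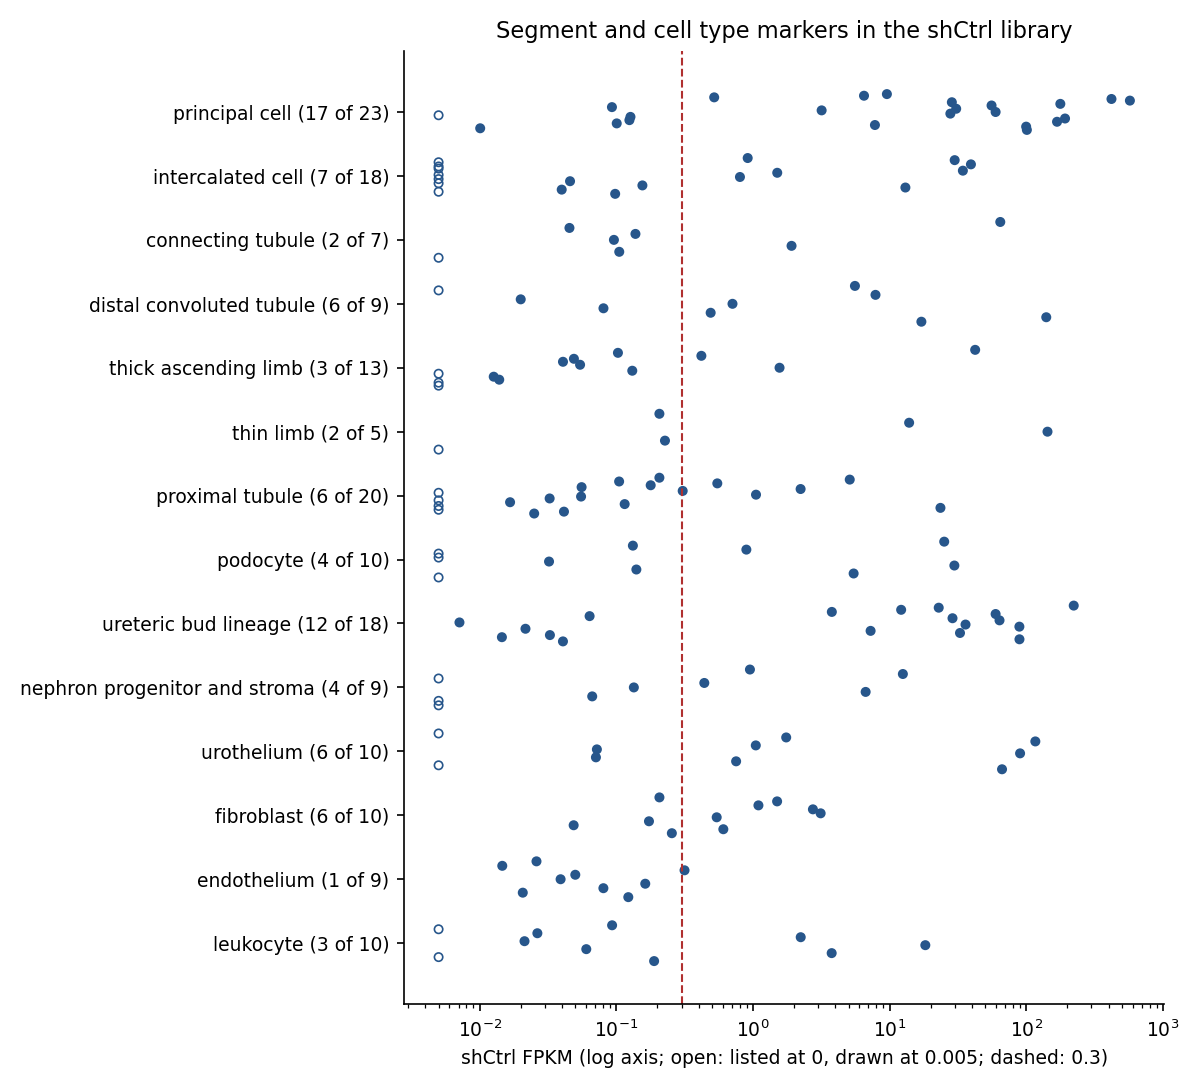
FPKM in the shCtrl library (log axis) of each member of 14 marker lists, with counts over 0.3 FPKM in brackets, open circles for genes listed at 0 and a dashed line at 0.3 FPKM. Principal cell genes (17 of 23) reach 573 FPKM, whereas 1 of 9 endothelial genes passes the limit.

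Of 15 defining genes of the other nephron segments and of intercalated cells, 3 were over the limit in shCtrl, among them Trpm6 and Lrp2. Intercalated cell genes were over 0.3 FPKM in 7 of 18 cases (38.9%). They were led by Atp6v1b1, a proton pump subunit, at 39.4 FPKM, carbonic anhydrase 2 (Car2) at 34.4 FPKM and the proton pump subunit Atp6v0a4 at 29.9 FPKM. The defining genes of these cells were not among them. Foxi1, their transcription factor, and Slc4a1, the anion exchanger of acid-secreting cells, were listed at 0, and Slc26a4, the pendrin of base-secreting cells, was at 0.0398 FPKM.

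Of 9 genes of the distal convoluted tubule, 6 were over the limit, led by the kinases Wnk1 at 140 FPKM and Wnk4 at 17.1 FPKM and by the sodium pump subunit Fxyd2 at 7.88 FPKM. Its defining cotransporter Slc12a3, the target of thiazides, was at 0.0805 FPKM, and the magnesium channel Trpm6 was at 0.49 FPKM. Of 7 connecting tubule genes, the calcium pump Atp2b1 at 64.5 FPKM and the calcium-binding protein S100g at 1.91 FPKM were over the limit. The defining genes Calb1 (calbindin) and Trpv5 (a calcium channel) were at 0.138 FPKM and listed at 0.

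Of 13 genes of the thick ascending limb, 3 were over the limit. Among them were the chloride channel subunit Bsnd at 42.3 FPKM and the growth factor gene Egf at 1.56 FPKM. Slc12a1, the target of loop diuretics, and Umod, the gene of uromodulin, were listed at 0. Of 5 thin limb genes, 2 were over the limit, the higher being the small heat shock protein Cryab at 143 FPKM, and the defining urea transporter Slc14a2 was listed at 0.

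Proximal tubule genes were over the limit in 6 of 20 cases (30.0%). The highest were the sodium bicarbonate cotransporter Slc4a4 at 23.5 FPKM, the arginine synthesis enzyme Ass1 at 5.11 FPKM and Ggt1, an enzyme of glutathione turnover, at 2.23 FPKM. Megalin (Lrp2) was at 1.05 FPKM and the phosphate transporter Slc34a1 was listed at 0. Of 10 podocyte genes, 4 were over the limit, led by podocalyxin (Podxl) at 29.8 FPKM, Kirrel at 25.1 FPKM and synaptopodin (Synpo) at 5.45 FPKM, while the slit diaphragm gene Nphs1 was listed at 0.

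Genes of the ureteric bud lineage were over the limit in 12 of 18 cases (66.7%), and 10 of them were over 10 FPKM. E-cadherin (Cdh1) was at 222 FPKM, the Wnt ligand gene Wnt7b at 89.2 FPKM and the paired-box factor Pax8 at 89.0 FPKM. The defining genes Hoxb7 and Pax2, both transcription factors of the bud and its ducts, were at 63.7 and 35.9 FPKM. Ret, the receptor of the branching tips, was at 0.0216 FPKM. Of 9 genes of nephron progenitors and stroma, 4 were over the limit, led by Eya1 at 12.5 FPKM, Osr1 at 6.67 FPKM and Cited1 at 0.950 FPKM, and both defining factors, Six2 of the progenitors and Foxd1 of the stroma, were listed at 0.

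Some genes of the bladder lining, the urothelium, were high in shCtrl. Keratin 20 (Krt20) was at 116 FPKM and the uroplakins Upk1a and Upk3b were at 90.1 and 66.5 FPKM, and 6 of 10 members were over the limit in all. The defining uroplakins were low, Upk2 at 0.752 FPKM and Upk3a listed at 0.

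Markers of cells outside the epithelium were under 10 FPKM apart from Csf1r. Of 10 fibroblast genes, 6 were over the limit, none of them over 10 FPKM, with decorin (Dcn) at 3.13 FPKM, the collagens Col3a1 at 2.74 FPKM and Col1a1 at 1.5 FPKM, and the growth factor receptor Pdgfra under the limit at 0.173 FPKM. Of 9 endothelial genes, endoglin (Eng) was over it at 0.315 FPKM, and the junction genes Pecam1 and Cdh5 were at 0.163 and 0.0260 FPKM. Of 10 leukocyte genes, 3 were over it, the macrophage growth factor receptor Csf1r at 18.2 FPKM, lysozyme (Lyz2) at 3.77 FPKM and Cd68 at 2.23 FPKM, whereas Ptprc, the pan-leukocyte CD45, was at 0.189 FPKM. Summed over their lists, fibroblast genes came to 7.07 FPKM in shGR1, 14.3 FPKM in shGR2 and 10.3 FPKM in shCtrl, and leukocyte genes to 16.4 FPKM in shGR1, 20.5 FPKM in shGR2 and 24.6 FPKM in shCtrl. Whether a few other cells contributed to the library was not tested. Of 6 sex-linked genes, which include Xist, Uty and Ddx3y, none was over the limit, and the highest was Eif2s3y at 0.183 FPKM.

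The genes just inside the limit in shCtrl included Hnf4a, a factor of the proximal tubule, at 0.306 FPKM and Eng at 0.315 FPKM. Just outside it were the receptors Tnfrsf9 at 0.298 FPKM and Aatk at 0.292 FPKM. These 4 genes were chosen after their values were seen. Calls near the limit were the least stable between libraries. Of 2039 genes over 0.3 to 1 FPKM in shCtrl, 1264 were over the limit in both shGR1 and shGR2 (62.0%), against 97.9% of 4497 genes over 1 to 10 FPKM and 99.8% of 7176 genes over 10 to 100 FPKM.

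The 20 highest solute carriers included carriers of amino acids, mitochondrial metabolites and zinc. Of 380 solute carrier genes, 192 were over the limit (50.5%, under the background of 53.4%) and 76 were listed at 0. The highest were Slc3a2, the heavy chain of heteromeric amino acid transporters, at 285 FPKM, Slc25a3, the mitochondrial phosphate carrier, at 269 FPKM and Slc38a2, a sodium-coupled neutral amino acid carrier, at 251 FPKM. The 20 highest reached down to Slc48a1, a heme transporter, at 53.9 FPKM. They included the adenine nucleotide carriers Slc25a4 and Slc25a5 at 160 and 148 FPKM, and the mitochondrial carriers Slc25a36 at 95.4 FPKM, Slc25a39 at 83.9 FPKM and Slc25a24 at 73.2 FPKM. Zinc carriers were represented by Slc39a14 at 126 FPKM and Slc39a7 at 66.3 FPKM. The cationic amino acid carrier Slc7a1 was at 111 FPKM and Slc7a5, which pairs with the Slc3a2 protein, at 61.6 FPKM. The choline carrier family members Slc44a2 and Slc44a1 were at 107 and 94 FPKM and the taurine carrier Slc6a6 at 86.4 FPKM. The anion exchanger Slc4a2 was at 63.6 FPKM and its relative Slc4a11 at 62.1 FPKM. The lactate carrier Slc16a1 was at 60.2 FPKM and the nucleotide sugar carrier Slc35a3 at 61.5 FPKM.

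Of 12 aquaporins, 6 were over the limit in shCtrl (2 at a limit of 1 FPKM), and after Aqp2 the highest were Aqp3, the basolateral channel of principal cells, at 6.49 FPKM and Aqp6, an intracellular channel of intercalated cells, at 0.914 FPKM. Of 20 genes of sodium entry, 9 were over the limit, led by Scnn1a and by the phosphate cotransporters Slc20a1 and Slc20a2 at 27.8 and 27.4 FPKM. Of 14 sodium pump genes, 10 were over it, among them Atp1b1 at 573 FPKM and Atp1b3 at 84.5 FPKM. Of 92 potassium channel subunits, by contrast, 12 were over the limit (13%), a count that was 23 at a limit of 0.1 FPKM and 7 at 1 FPKM. The tandem-pore channel Kcnk1 at 111 FPKM stood above all others, followed by Kcnq1 at 7.81 FPKM and Kcnk5 at 6.98 FPKM.

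Chloride and bicarbonate genes were over the limit in 15 of 22 cases, led by the endosomal exchanger Clcn3 at 87.5 FPKM with Slc4a2 and Slc4a11. Genes of osmolyte and urea transport were over it in 7 of 9 cases, led by Slc38a2, Slc44a2 and Slc44a1. Of 19 calcium and magnesium genes, 13 were over it, led by the reticulum calcium pump Atp2a2 at 95.2 FPKM, the osmotically activated channel Trpv4 at 74.3 FPKM and Atp2b1, and of 21 TRP channels 5 were (10 at 0.1 FPKM), with Trpm7 at 49.8 FPKM and Trpm4 at 20.4 FPKM after Trpv4. Of 12 glucose and monocarboxylate carriers, 4 were over the limit (10 at 0.1 FPKM), led by Slc16a1, the glucose carriers Slc2a1 at 37.5 FPKM and Slc2a8 at 8.24 FPKM. Of 21 organic ion carriers, 11 were, led by the efflux pumps Abcc1 at 75.7 FPKM and Abcc4 at 24.4 FPKM and by Slco4a1 at 22 FPKM.

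Subunit genes of the vacuolar proton pump were over the limit in 18 of 22 cases (81.8%). The highest were the membrane subunits Atp6v0c at 140 FPKM, Atp6v0b at 114 FPKM and Atp6v0e at 90.9 FPKM. The 4 others, Atp6v0d2, Atp6v1c2, Atp6v1e2 and Atp6v1g3, were listed at 0 and were named after their values were seen. Of 23 claudins, which set the ion selectivity of tight junctions, 11 were over the limit, with Cldn6 at 208 FPKM, Cldn4 at 142 FPKM and Cldn7 at 125 FPKM. Of 50 ABC transporters 26 were over it, led by Abce1, a ribosome recycling factor, at 101 FPKM, Abcc1, and Abcf1, a translation factor, at 49.0 FPKM.

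Receptor genes were over the limit at unequal rates. Of 79 receptors listed as G protein-coupled, 28 were over it (35.4%) and 23 were listed at 0. That list held hormone and autacoid receptors and also orphan receptors, Lgr4, Smo and Fzd genes. The orphan receptors Gprc5c and Gprc5a were at 124 and 93.8 FPKM, and the thrombin receptor F2r was at 75.9 FPKM. Lgr4, a receptor of R-spondins, was at 40.8 FPKM, and Avpr2 was the fifth of the list. Below it came the adenosine receptor Adora1 at 26.1 FPKM, the protease-activated receptor F2rl1 at 20.4 FPKM, the Hedgehog transducer Smo at 18.5 FPKM, the Wnt receptor Fzd2 at 17.5 FPKM and the prostaglandin E2 receptor Ptger1 at 15.3 FPKM. The other vasopressin receptors Avpr1a and Avpr1b were listed at 0. So were the receptors of calcitonin (Calcr), glucagon (Gcgr), GLP-1 and GLP-2 (Glp1r, Glp2r), secretin (Sctr) and prostacyclin (Ptgir), the β-adrenergic receptors Adrb1 and Adrb3, and the α-adrenergic receptor Adra1a. Further genes listed at 0 were Adora3, Bdkrb1, Drd1, Drd2, Fzd6, Lpar3, Mas1, Oxgr1, P2ry4, P2ry14, Ptger2 and Sucnr1. None of 1101 olfactory receptor genes was over the limit.

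**Figure D3:**
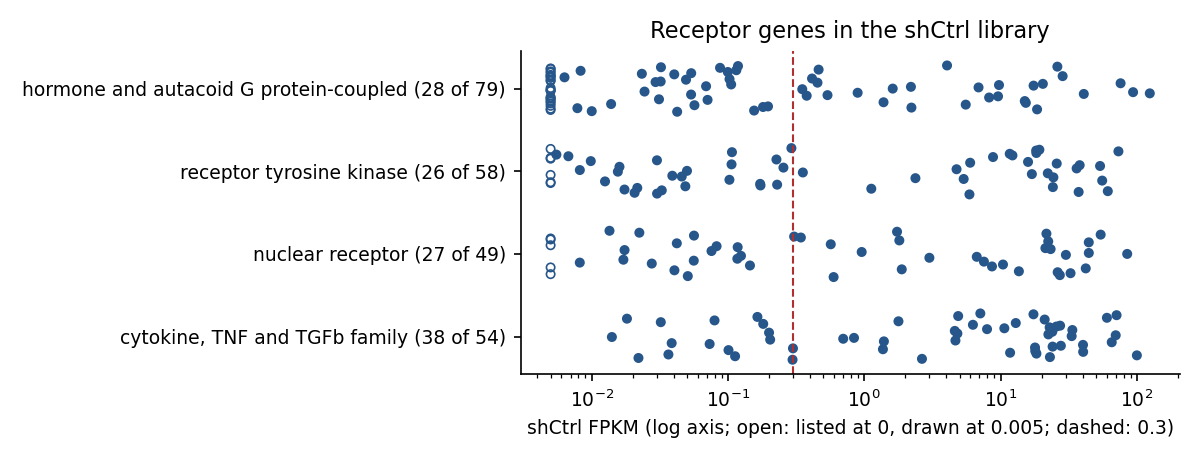
FPKM in the shCtrl library (log axis) of each member of 4 receptor lists, drawn as in the plot of segment markers. The list of cytokine, TNF and TGFβ family receptors, which also holds Notch1, crosses the limit most often (38 of 54). G protein-coupled receptors (28 of 79) cross it least often, and the highest of all is Gprc5c at 124 FPKM.

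Receptor tyrosine kinases were over the limit in 26 of 58 cases (44.8%). Ddr1, a collagen receptor, was at 73.2 FPKM, the Wnt coreceptor Ryk at 61.2 FPKM, the hepatocyte growth factor receptor Met at 55.7 FPKM and the ERBB family genes Erbb3 and Erbb2 at 53.7 and 38.0 FPKM. Styk1 was at 37.4 FPKM, the FGF receptor Fgfr2 at 36.1 FPKM, the ephrin receptor Ephb4 at 25.8 FPKM, Lmtk2 at 24.4 FPKM and Ptk7 at 24.2 FPKM. Alk, Epha5, Epha6, Insrr and Musk were among those listed at 0.

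A list of cytokine, TNF and TGFβ family receptors, which also held Notch1, had 38 of 54 members over the limit (70.4%) and none listed at 0. They were led by Tnfrsf12a, the TWEAK receptor, at 99.98 FPKM, the activin receptor Acvr2a at 71.0 FPKM and Il17re, an interleukin 17 receptor chain, at 69.9 FPKM. The shared signalling chain Il6st was at 65.4 FPKM, the BMP receptor Bmpr1a at 60.3 FPKM, the TGFβ receptor Tgfbr2 at 40.4 FPKM and the lymphotoxin receptor Ltbr at 40.3 FPKM. Il10rb was at 33.6 FPKM, the interleukin 1 receptor Il1r1 at 33.2 FPKM and Notch1 at 27.7 FPKM.

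Nuclear receptors were over the limit in 27 of 49 cases (55.1%, near the background of 53.4%). Nr2f6, an orphan receptor, was at 84.9 FPKM, Esrrb, an estrogen-related receptor, at 54.2 FPKM and Nr2f2, an orphan receptor also called COUP-TFII, at 44.4 FPKM. The liver X receptor Nr1h2 was at 44.4 FPKM, the retinoic acid receptor Rarg at 42.2 FPKM and its partners Rxrb and Rxra at 32.6 and 26.2 FPKM. The glucocorticoid receptor Nr3c1 at 30.2 FPKM was the seventh of the list, followed by the thyroid hormone receptor Thra at 27.2 FPKM, and Nr2c2 was at 23.3 FPKM. Nr0b1, Nr0b2, Nr1h5, Rarb and Rxrg were listed at 0.

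Hox genes lie in 4 clusters, numbered from the 3′ end, and give cells a position along the body axis. Of 39 Hox genes, 23 were over the limit in shCtrl (59.0%), of which 9 of 10 were in the Hoxb cluster, 9 of 11 in Hoxa, 5 of 9 in Hoxd and 0 of 9 in Hoxc. Hoxb9 was the highest at 134 FPKM, followed by Hoxb8 at 66.6 FPKM and Hoxb7 at 63.7 FPKM. In Hoxd the highest were Hoxd8 at 56.3 FPKM, Hoxd9 at 48.1 FPKM and Hoxd4 at 45.5 FPKM, and in Hoxa they were Hoxa10 at 20.3 FPKM, Hoxa7 at 18.7 FPKM and Hoxa9 at 18.0 FPKM.

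The other Hox genes over the limit were between 0.665 and 42.1 FPKM. In the Hoxa cluster they included Hoxa2 at 2.80, Hoxa3 at 7.54, Hoxa4 at 0.665, Hoxa5 at 11.2 and Hoxa6 at 3.48 FPKM. In the Hoxb cluster they were Hoxb2 at 19.5, Hoxb3 at 42.1, Hoxb4 at 6.73, Hoxb5 at 25.0, Hoxb6 at 29.7 and Hoxb13 at 2.45 FPKM, and in the Hoxd cluster Hoxd3 at 6.87 and Hoxd10 at 8.29 FPKM. Along the clusters, 22 of the 24 genes with paralog numbers 1 to 10 outside Hoxc were over the limit, against 1 of 9 genes with paralog numbers 11 to 13 in all clusters, that gene being Hoxb13. Neighbouring Hox genes overlap each other and antisense RNAs, and whether the libraries keep strand was not known, so the split of reads between neighbours is uncertain.

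**Figure D4:**
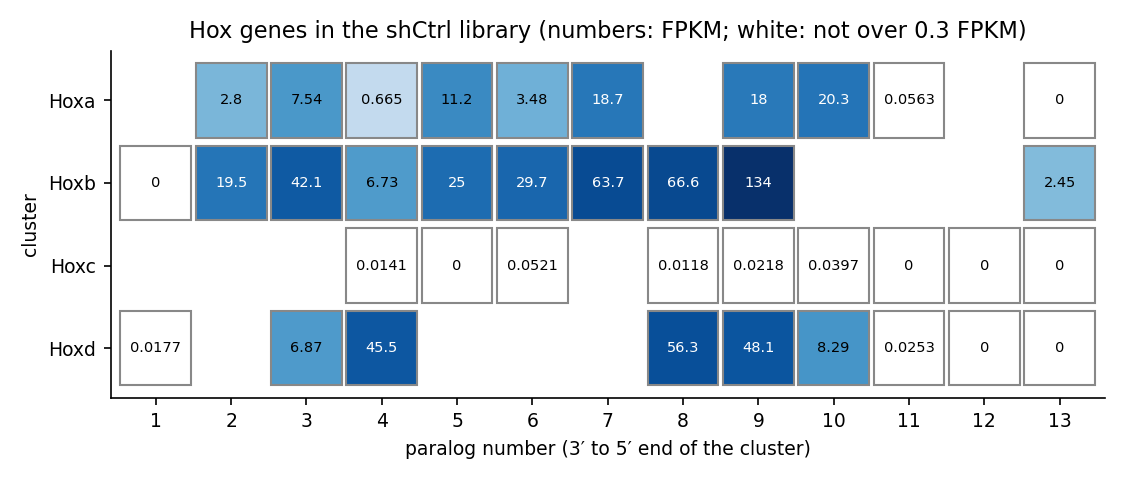
FPKM in the shCtrl library of 38 Hox genes by cluster (rows) and paralog number (columns), with white for genes not over 0.3 FPKM and darker blue for higher values. The Hoxc row is white throughout, and Hoxb9 at 134 FPKM is the darkest square.

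The other developmental families named here were small, and their shares over the limit are read beside the 53.4% of protein-coding symbols. They were 50% for Gata, 33.3% for Pax and 16.7% for Irx. Of 6 Gata genes, Gata3 was over the limit with Gata2 at 3.18 FPKM and Gata4 at 0.341 FPKM. Gata4 had no single transcript over 0.3 FPKM and was at 0.242 FPKM in shGR1, under the limit. Of 9 Pax genes, the kidney factors Pax8 at 89.0 FPKM and Pax2 at 35.9 FPKM were over it with Pax9 at 1.96 FPKM. Of 6 Irx genes Irx2 alone was over it, at 6.48 FPKM. A list of 24 other epithelial regulators, of which 12 were over the limit, was led by the collecting duct factor Tfcp2l1 at 101 FPKM and the splicing regulators Esrp2 and Esrp1 at 56.9 and 55.3 FPKM.

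Larger families were led by widely expressed factors. Of 44 Fox genes, 19 were over the limit, led by Foxq1 at 35.0 FPKM, Foxm1, a factor of dividing cells, at 34.6 FPKM and Foxo3 at 29.7 FPKM. Of 19 Sox genes, 6 were, led by Sox4 at 72.5 FPKM, Sox13 at 9.23 FPKM and Sox11 at 8.35 FPKM. Of 17 Klf genes, 11 were, led by Klf6 at 147 FPKM, Klf5 at 73.3 FPKM and Klf3 at 54.2 FPKM. All 4 Tead genes, the partners of the Hippo pathway, were over the limit with Tead3 at 32.2 FPKM, Tead2 at 26.6 FPKM and Tead1 at 23.6 FPKM. So were 6 of 7 Stat genes, led by Stat6 at 39.0 FPKM, Stat3 at 28.6 FPKM and Stat5b at 13.8 FPKM, and 8 of 9 Irf genes, among them Irf3 at 32.1 FPKM and Irf1 at 16.3 FPKM. Of 6 genes grouped by the symbol Cebp alone, which need not be 1 protein family, 4 were over the limit. They were led by Cebpb at 53.9 FPKM, Cebpg at 34.4 FPKM and Cebpz at 31.4 FPKM. By contrast, 2 of 13 Tbx genes were over it, Tbx3 at 7.96 and Tbx6 at 1.23 FPKM, and 1 of 8 Lhx genes, Lhx9 at 0.428 FPKM.

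Of 8 genes listed as regulators of Aqp2 transcription, 7 were over the limit in shCtrl, each above 10 FPKM. The ETS factor Ehf was at 178 FPKM, the actin crosslinker Actn4 at 103 FPKM, the tonicity-responsive factor Nfat5 at 81.6 FPKM, Gata3 at 59.6 FPKM and the ETS factor Elf3 at 55.7 FPKM. Nr3c1 was at 30.2 FPKM and the cAMP-responsive factor Creb1 at 26.8 FPKM, and Elf5 was under the limit. Among 27 ETS genes as a family, 17 were over it, and Ehf stood above Elf1, the next, at 56.7 FPKM. Of 9 genes that mark tubular injury, 7 were over the limit, led by Krt20, the iron-binding lipocalin Lcn2 at 97.9 FPKM and clusterin (Clu) at 21.8 FPKM.

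The most abundant genes of the library serve energy metabolism and translation. The highest were the mitochondrial respiratory genes mt-Co1 at 16455 FPKM, mt-Cytb at 6596 FPKM and mt-Nd1 at 5866 FPKM, and mitochondrially encoded genes took 9.17% of all FPKM. The highest nuclear gene was the elongation factor Eef1a1 at 4065 FPKM, followed by β-actin (Actb) at 1991 FPKM, ferritin light chain (Ftl1) at 1546 FPKM and the glycolytic enzyme Pkm at 1262 FPKM. The metallothionein Mt1 was at 1067 FPKM, 14th in the library. Others of the 20 highest were mt-Nd2, mt-Nd5, mt-Nd4, Eef2, Hnrnpa2b1, Tpt1, Hsp90ab1, H3f3b and the ribosomal protein genes Rplp1, Rpl5, Rps15 and Rpl32, and the lowest of the 20 was H3f3b at 911 FPKM. In all, 948 genes held 50% of the FPKM. Of 8304 processed pseudogenes 1402 were over the limit, and since such copies share sequence with their parent genes, the values of Eef1a1, Ftl1 and the ribosomal protein genes are uncertain by that share.

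Isoforms were spread unevenly. Over 9845 protein-coding genes over the limit with several listed transcripts, the highest transcript held a median of 74.3% of the gene's FPKM in shCtrl. Aqp2 had 1 listed transcript. The highest transcript held 89.9% of Avpr2, 82.4% of Gata3 and 60.8% of Scnn1a, but 24% of Fxyd4, whose 9 transcripts each held between 2.18% and 24%.

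The principal cell genes of shCtrl are set beside those of the knockdown lines to show where the baseline differed from theirs. Nr3c1 itself was at 4.41 FPKM in shGR1 and 9.13 FPKM in shGR2, against 30.2 FPKM in shCtrl. The methods of the study give a weaker reduction of this mRNA, of nearly equal size in both knockdown lines. Of 15025 genes over 0.3 FPKM in any library and above 0 in all 3, 436 were at least 2-fold lower in both knockdown lines than in shCtrl (2.9%) and 332 at least 2-fold higher in both (2.21%). The median log2 ratio over these genes was -0.05. Both ratios share the shCtrl library, so any error in that library enters both.

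Of 17 principal cell members with such ratios, 7 were at least 2-fold lower in both knockdown lines and 0 at least 2-fold higher, and the median of their mean log2 ratios was -0.61. The list was chosen with earlier results of these data known. The study had reported Aqp2 and Avpr2 as lower from the same libraries, so the count describes the chosen members alone. By quantitative RT-PCR in independent experiments, the study also found lower Avpr2 mRNA in both knockdown lines under vehicle. Aqp2 was at 0.751 FPKM in shGR1 and 2.14 FPKM in shGR2, against 9.55 FPKM in shCtrl. Fxyd4 was at 1.07 and 3.76 FPKM in shGR1 and shGR2, against 30.7 FPKM in shCtrl. Both knockdown values lay under the control value in each of these genes.

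Scnn1a was at 21.7 and 27.2 FPKM in shGR1 and shGR2, against 168 FPKM in shCtrl. Avpr2 was at 12.8 and 12.1 FPKM in shGR1 and shGR2, against 28.5 FPKM in shCtrl. The others of the 7, named after their values were seen, were Sgk1, Ehf and Atp1b1. Gata3 differed by less than 2-fold, at 43.2 and 46.6 FPKM in shGR1 and shGR2, against 59.6 FPKM in shCtrl, and Hsd11b2 lay on either side of it, at 19.5 and 55.8 FPKM, against 27.8 FPKM in shCtrl. Nr3c2 and Scnn1b were under the limit in each library, Nr3c2 at 0.238 and 0.265 FPKM in shGR1 and shGR2 and 0.125 FPKM in shCtrl.

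**Figure D5:**
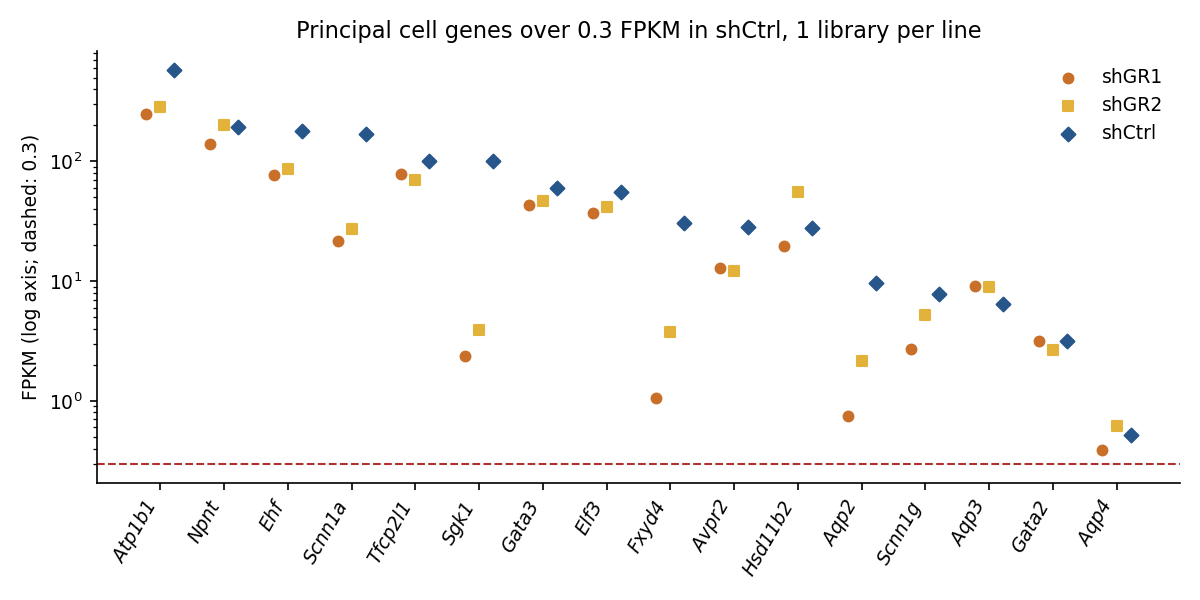
FPKM (log axis) of 16 of the 17 principal cell genes over 0.3 FPKM in shCtrl, with 1 point for each of the libraries shGR1, shGR2 and shCtrl and no error bars because each line had 1 library. Aqp2, Fxyd4, Scnn1a and Sgk1 show the widest gaps between the knockdown points and the shCtrl point.

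The same comparison gave other counts for other lists. Among intercalated cell genes 3 of 7 were at least 2-fold lower in both lines, and among urothelial genes 3 of 6, so that the sum of the urothelial list was 85.7 FPKM in shGR1 and 96.4 FPKM in shGR2, against 277 FPKM in shCtrl. Among ureteric bud genes 0 of 12 and among Hox genes 0 of 23 were past 2-fold in both lines in either direction. The Hox sum was 656 FPKM in shGR1 and 617 FPKM in shGR2, against 639 FPKM in shCtrl.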

How the data were processed

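Tools named in the submitters' processing notes are Cufflinks 2.2.1, Cuffdiff, HISAT2 and bcl2fastq 2.20. The authors deposited FPKM for 128603 Ensembl transcripts in 3 libraries, 1 per line. Another 4 deposited tables hold the authors' own knockdown-to-control comparisons and were not used. The notes name GRCm39, but 98.6% of 128066 transcripts lay at their GENCODE M21 (GRCm38) position, so positions and gene types are from that annotation. FPKM were summed per symbol (97 symbols had several identifiers) with pandas 2.3.3, and genes were ranked. No test was run. The members and lists were chosen with earlier results of these data known, and the carrier and proton pump name patterns were narrowed after seeing the data. Genes named are, by rule, the defining markers, the 3 highest of each list or family over the limit, the 10 highest receptors of each list, receptor and principal cell members listed at 0, the 20 highest genes and carriers, the Hox, Gata, Pax and Irx genes over the limit, the Aqp2 regulator list, Nr3c1 and Nr3c2. Others (Sgk1, Hsd11b2, Scnn1g, Scnn1b, the complex I genes and single members of lists) were named after their values were seen. Promoters are the RefSeq (GRCm38.p6) entries of 16235 of 21839 protein-coding symbols. Summing and ranking were tested on simulated data. Some genes that the rule takes are not reported here.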

Additional observations from a re-analysis of the deposited data

How the results depend on the processing

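The count of genes over the limit in shCtrl (14457 at 0.3 FPKM) was 16775 at a limit of 0.1 FPKM, 12418 at 1 FPKM, 14187 with the highest single transcript in place of the sum and 16005 after rescaling to TPM. Rescaling to TPM multiplies all values of a library by the same factor. It therefore acts here as a limit between 0.1 and 0.3 FPKM and not as a separate check of the unit. The following segment counts moved by over 1.5 times. At 0.1 FPKM, connecting tubule genes over the limit numbered 4, thick ascending limb genes 5, thin limb genes 4, proximal tubule genes 10 and endothelial genes 3. At 1 FPKM, nephron progenitor and stroma genes numbered 2 and endothelial genes 0. Endothelial genes numbered 0 with the highest single transcript and 2 with TPM, and thin limb genes 4 with TPM. Other counts over the limit that moved as far were, at 0.1 FPKM, 23 potassium channel subunits (12 at 0.3 FPKM), 10 TRP channels (5), 10 glucose and monocarboxylate carriers (4), 3 Irx (1), 4 Tbx (2), 3 sex-linked (0) and 4 olfactory receptor genes (0). At 1 FPKM they were 7 potassium channel subunits, 2 aquaporins (6) and 0 Lhx genes (1). With TPM they were 9 glucose and monocarboxylate carriers, 2 Irx, 4 Tbx, 2 sex-linked and 3 olfactory receptor genes, and with the highest single transcript 0 Lhx genes. The principal cell count of 17 and the ureteric bud count of 12 stayed within 1.5 times under all 4 alternatives. The median rank of the 5 markers was 3517 over all symbols, 3341 over protein-coding symbols and 3082 by highest transcript. The 7 principal cell genes at least 2-fold lower in both knockdown lines numbered 7 with a pseudocount of 0.1 or 1 or no filter, and 5 with ratios centred on the median. No paired analysis was possible because each line had 1 library. The depth is known only crudely, so a gene under the limit may be expressed at a level not detectable here.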

Other observations

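Genes that code for no protein were over 0.3 FPKM in shCtrl at shares that differed by type. Over the noncoding types counted, they ran from 0.182% of miRNA symbols to 28.2% of transcribed processed pseudogenes. Each was under the 53.4% of protein-coding symbols. Of 4792 lincRNA symbols 278 were over it (5.80%), and of 2630 antisense symbols 266 (10.1%). Protein-coding genes held 93.9% of all FPKM. Protein-coding genes of chromosome X were over the limit in 333 of 948 cases (35.1%), against shares between 42.9% (chromosome 14) and 63.3% (chromosome 12) on the autosomes. On chromosome Y, 1 of 183 was over it, at 0.611 FPKM. These shares are descriptions of 1 library.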
